A study of Mus musculus with 3 samples.

Results

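The genes described here encode the subunits of RNA polymerase II (Pol II) and the factors that travel with it along a gene. They are 40 of the 18130 protein-coding genes with a value: 12 polymerase subunits and 28 elongation factors. The choice was made by name from textbook knowledge of these complexes, with earlier results of these data known. RNA was measured by sequencing in mouse cortical neurons of wild-type genotype, treatment CON, called control in the sample titles. There are 3 libraries of total RNA, which form 1 group, and no treated group was analysed here. The series title concerns how DNA supercoiling spreads and how topoisomerases are used in neurons. No age, strain or day of culture is given in the labels, and nothing in them says that the 3 libraries came from separate cultures, so the spread between them may be technical.

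RNA polymerase II transcribes protein-coding genes and, shortly after starting, often pauses near the promoter, where the DSIF and NELF complexes hold it. The kinase P-TEFb releases it by phosphorylating DSIF, NELF and the tail of the largest subunit, and is itself kept inactive by the 7SK RNA particle or recruited in the super elongation complex. The PAF1 complex, SPT6, FACT and TFIIS then help the polymerase through nucleosomes and arrest sites. Neurons are known for expressing many very long genes, whose transcription calls for polymerases that stay on the template over long distances.

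Values are in TPM, a relative abundance of transcripts scaled by their length, so that levels of different genes can be set side by side. A gene's level is that of the coding transcript to which most reads were assigned. The deposited rows of overlapping transcripts share reads, so the values lie below TPM scaled over genes. Taking nuclear coding genes alone as the total multiplied the members' levels by a median of 4.65. That total also leaves out mitochondrial and noncoding genes, and their part in the factor was not tested. The coding transcripts so chosen received 32488767, 28684943 and 28224981 reads in replicates 1, 2 and 3, of which 77603, 69046 and 74150 fell on the 40 members. Errors are SD over the 3 libraries (n = 3).

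The neuronal label was checked against marker genes. All 8 pan-neuronal markers were at 1 TPM or more, with a median of 204 TPM, and ranged from the RNA-binding protein gene Elavl4 at 19.2 ± 4.17 TPM to the microtubule regulator gene Stmn2 at 687 ± 55.6 TPM. All 7 astrocyte markers were also at 1 TPM or more, with a median of 41.6 TPM, as were 6 of 7 oligodendrocyte lineage markers (median 2.02 TPM) and 4 of 5 proliferation genes (median 1.89 TPM). Of the microglial markers 1 of 6 reached 1 TPM, with Tmem119 at 0 reads, and of the endothelial markers 0 of 4, with Cldn5 at 0 reads. Markers of more than 1 cell type were thus present, and the part of each cell type in the levels below was not tested. In bulk RNA, fewer cells of a type and less RNA per cell cannot be told apart.

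As sequence context, the 250 bases before the start site were read from RefSeq promoters on GRCm38.p6, which held a usable entry for 32 of the 40 members. They are printed for Polr2a, which encodes the catalytic subunit, and for Aff4 and Aff1, paralogs in the super elongation complex with very different levels, a choice made after the values were seen. Capitals mark matches on either strand to any of the 6 motifs searched: the TATA box, spelled TATAAA in the search, the CAAT element with letters CCAAT, an Sp1-type GC box with the letters GGGCGG, an ETS element that reads CCGGAAG, and the longer NRF1 and YY1 elements, which are given by name alone. A capital run CCGCCC is a GC box read on the other strand. Matches to different motifs may overlap and were counted separately. The windows lie at chr11:69758634-69758883 on the minus strand for Polr2a, at chr11:53350517-53350766 on the plus strand for Aff4 and at chr5:103754323-103754572 on the plus strand for Aff1.
Polr2a: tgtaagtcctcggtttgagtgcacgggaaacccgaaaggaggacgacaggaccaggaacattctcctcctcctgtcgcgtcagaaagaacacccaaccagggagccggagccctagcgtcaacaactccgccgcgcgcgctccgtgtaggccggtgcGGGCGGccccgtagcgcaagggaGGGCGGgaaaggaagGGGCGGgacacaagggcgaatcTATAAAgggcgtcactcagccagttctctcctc
Aff4: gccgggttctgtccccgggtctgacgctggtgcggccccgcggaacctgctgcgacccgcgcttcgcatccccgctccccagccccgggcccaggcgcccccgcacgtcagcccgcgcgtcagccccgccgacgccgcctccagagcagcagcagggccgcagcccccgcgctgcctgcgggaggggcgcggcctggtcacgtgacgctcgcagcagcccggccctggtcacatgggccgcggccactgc
Aff1: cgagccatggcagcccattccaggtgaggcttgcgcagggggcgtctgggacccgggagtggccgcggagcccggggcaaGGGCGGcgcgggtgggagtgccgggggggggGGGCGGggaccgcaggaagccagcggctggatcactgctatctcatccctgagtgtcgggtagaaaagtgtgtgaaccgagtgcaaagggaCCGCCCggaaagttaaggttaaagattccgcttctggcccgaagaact

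Nearly all of the machinery was expressed. Of the 40 members, 39 had a mean of at least 1 TPM, against 61.8% of all coding genes, and the exception was the small subunit gene Polr2k at 0.97 TPM. The median member stood at 9.87 ± 0.13 TPM, the median coding gene at 2.90 ± 0.01 TPM. Inside each library the member median exceeded the coding median by 1.73 ± 0.02 on the log2(TPM + 0.1) scale. Among genes of at least 1 TPM this difference was 0.29 ± 0.02, and the median of those coding genes was 8.22 TPM. The members thus lay close to the middle of expressed genes, not among the most abundant. Their levels ran over a 50.4-fold range, from Polr2k to the subunit gene Polr2g at 49.0 TPM. The Pol II subunits had a median of 14.0 ± 0.51 TPM, with 11 of 12 at 1 TPM or more. The elongation factors had a median of 8.40 ± 0.25 TPM, with 28 of 28 at 1 TPM or more.

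**Figure D1:**
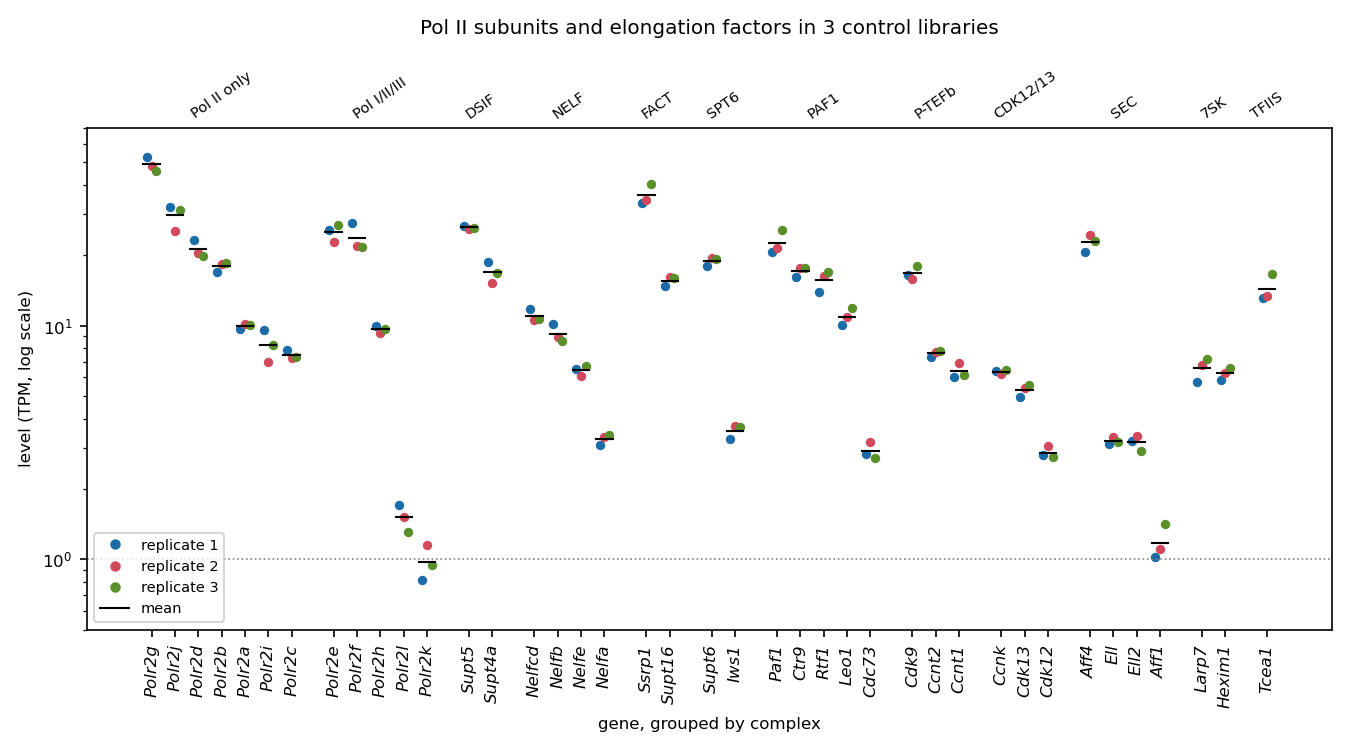
Levels of the 40 genes in TPM on a log axis, grouped by complex, with a point for each of the 3 control libraries, a bar at their mean and a dotted line at 1 TPM. Polr2g (mean 49.0 TPM) and Ssrp1 (36.2 TPM) are the highest genes, and Polr2k (0.97 TPM), Aff1 (1.18 TPM) and Polr2l (1.51 TPM) the lowest.

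Polr2a and Polr2b encode the pair of large subunits that form the active centre. Polr2a (ENSMUSG00000005198.15, chr11:69733997-69758637, minus strand, 29 coding exons) stood at 9.63, 10.2 and 10.1 TPM in replicates 1, 2 and 3. Polr2b (chr5:77310147-77349324, plus strand) stood at 16.9, 18.4 and 18.5 TPM. The ranges did not overlap: Polr2b was above Polr2a in each library, by a ratio of 1.80 ± 0.04, and the Polr2a minus Polr2b difference was -0.84 ± 0.03 on the log2(TPM + 0.1) scale. This is 1 of 23 differences between partners or paralogs that were examined. For each, the two-sided exact sign-flip permutation test over 3 libraries cannot go below p = 0.25, the value that 21 of the 23 gave (Benjamini-Hochberg adjusted p = 0.274), so no pair could pass 0.05. These 21 pairs had the same sign in the 3 libraries and a mean difference larger than its SD. That share was not computed for pairs of unrelated genes, so the count shows nothing particular to partners or paralogs.

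The other Pol II-specific subunits were uneven. Polr2g and Polr2d encode the stalk that sits beside the RNA exit channel. Polr2g (chr19:8793127-8798577) stood at 53.0, 48.1 and 45.8 TPM, the highest level of the 40 genes, and Polr2d at 23.3, 20.6 and 19.9 TPM. Both were highest in replicate 1 and lowest in replicate 3, and their difference inside a library hardly moved, at -1.20 ± 0.02 for Polr2d minus Polr2g. Polr2c and Polr2j encode the partners of the assembly platform on which the enzyme is built. Polr2j stood at 32.3, 25.5 and 31.2 TPM and Polr2c at 7.84, 7.29 and 7.32 TPM. Polr2c lay below Polr2j in each library, by -1.96 ± 0.15, or -3.50 when values were summed over all transcripts of a gene, which counts shared reads repeatedly. A window of 50 bases is said here to occur once in the genome if it matches nowhere outside the gene's span. Only 47.8% of the 50-base windows of the Polr2c transcript, and 9.54% of those in its coding sequence, occur once. The sources used here do not say how reads with several matches were counted, so the low Polr2c level is uncertain. Polr2i, a small subunit involved in start-site choice and RNA cleavage, had 9.55, 6.98 and 8.23 TPM. Its transcript shares 325 bases with Tbcb on the opposite strand, a gene at 62.2 TPM. The counting separated strands: 44 transcripts lying inside exons of an opposite-strand gene had a median of 0.0733% of the level of that gene, while 146 lying in the same orientation had 33.2%.

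The subunits that Pol II shares with Pol I and Pol III covered most of the range of the whole set. Polr2e, a jaw subunit, stood at 25.8, 22.8 and 26.9 TPM. Polr2f, which helps to hold the core together, stood at 27.6, 21.9 and 21.6 TPM, and Polr2h at 9.96, 9.30 and 9.65 TPM. For Polr2h 83.8% of the windows, and 67.3% of those in the coding sequence, occur once in the genome. At the other end, Polr2l had 1.70, 1.51 and 1.31 TPM and Polr2k 0.81, 1.15 and 0.95 TPM; both encode very small zinc-binding subunits. The Polr2k values rest on 25, 30 and 26 reads. Its 95% exact Poisson intervals of 0.53 to 1.20, 0.78 to 1.65 and 0.62 to 1.39 TPM overlap and cover counting error only, so the order of the libraries could not be resolved at this depth. Of its 50-base windows 32.2% occur once in the genome and the rest match 6 other places. Polr2l is represented by a transcript of 1650 bases of which 201 are coding, 72.8% of its windows occur once, and only 13.2% of those in the coding sequence do. The part of repeated sequence in these low levels was not tested.

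For scale, the same enzymes' counterparts in Pol I, which makes ribosomal RNA, and Pol III, which makes transfer RNA, were measured in the same libraries. The median of 6 Pol I subunit genes was 3.84 ± 0.13 TPM, from Polr1e at 2.44 TPM to Cd3eap at 10.7 TPM. The median of 11 Pol III subunit genes was 6.82 ± 0.56 TPM, from Polr3g at 1.63 TPM to Crcp at 21.3 TPM. The pair shared by Pol I and Pol III, Polr1d and Polr1c, stood at 14.1 and 6.92 TPM. Gene for gene, Polr2a exceeded Polr1a by a ratio of 2.76 ± 0.11 and Polr3a by 2.62 ± 0.09, and Polr2b exceeded Polr1b by 6.96 ± 0.77 and Polr3b by 4.26 ± 0.16. Each of these 4 differences had the same sign in the 3 libraries, with log2(TPM + 0.1) differences of 1.44 ± 0.06, 1.37 ± 0.05, 2.75 ± 0.16 and 2.06 ± 0.05. With the sum over transcripts, these were 3.66 and 3.59 for Polr2a and, against Polr3b, 3.85 for Polr2b. The large subunits of Pol II were thus the higher ones in each comparison, although the RNA of a subunit is not its protein.

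Among the pausing factors, the DSIF genes had the higher levels and the NELF genes the lower ones, an order that depended on how transcripts were combined. With the sum over transcripts Nelfb, Nelfcd and Nelfe stood at 95.3, 61.7 and 50.7 TPM, above Supt4a at 46.6 and Supt5 at 26.3 TPM, and with the most abundant coding transcript Nelfb, at 17.3 TPM, lay slightly above Supt4a at 16.9 TPM. DSIF consists of SPT5 and SPT4. Supt5 (chr7:28314891-28338746) stood at 26.7, 26.0 and 26.3 TPM, the smallest relative spread of the 40 genes with a coefficient of variation of 1.37%. Supt4a stood at 18.7, 15.3 and 16.8 TPM, and 40.8% of its windows occur once in the genome. Supt5 exceeded Supt4a by 0.64 ± 0.12, a difference that turned to -0.82 with the sum over transcripts. The NELF subunit genes spanned a 3.36-fold range, with Nelfcd at 11.0 ± 0.65 TPM, Nelfb at 9.24 ± 0.84, Nelfe, which carries an RNA-binding domain, at 6.45 ± 0.34 and Nelfa at 3.27 ± 0.16 TPM. Nelfb values were 10.2, 8.96 and 8.58 TPM against 3.09, 3.34 and 3.39 TPM for Nelfa, so that replicate 1 was highest for Nelfb and lowest for Nelfa. Nelfb exceeded Nelfa by 1.47 ± 0.20, or 2.36 with the most abundant coding transcript and 4.37 with the sum. Nelfe lay below Nelfcd by -0.76 ± 0.10.

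The chromatin-associated factors followed. FACT, a histone chaperone that opens and rebuilds nucleosomes around the polymerase, has the subunits SSRP1 and SPT16. Ssrp1 (chr2:85037234-85047109) stood at 33.3, 34.7 and 40.5 TPM, the highest of the elongation factors, and Supt16 at 14.7, 16.1 and 16.0 TPM. Replicate 3 stood apart for Ssrp1 and not for Supt16, and Ssrp1 was the higher in each library by a ratio of 2.32 ± 0.19. Their log2(TPM + 0.1) difference was 1.20 ± 0.12, and 4.22 with the sum over transcripts. Supt6 encodes SPT6, a histone chaperone that binds the polymerase directly, and stood at 18.0, 19.5 and 19.2 TPM. Iws1, its binding partner, stood at 3.28, 3.71 and 3.67 TPM. Both were lowest in replicate 1, and the Supt6 to Iws1 ratio of 5.32 ± 0.14 varied little. Their log2(TPM + 0.1) difference of 2.38 ± 0.04 was 3.24 with the sum over transcripts.

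The PAF1 complex, a platform for histone modification during elongation, was graded over a 7.77-fold range. Paf1 stood at 20.8, 21.5 and 25.6 TPM. Ctr9, the scaffold, stood at 16.1, 17.7 and 17.7 TPM, and Rtf1, which recruits the histone H2B ubiquitination enzymes, at 13.9, 16.4 and 16.9 TPM. Leo1 had 10.04, 10.85 and 11.88 TPM. Each of these 4 genes was lowest in replicate 1 and highest in replicate 3. Cdc73, the gene for parafibromin, stood at 2.83, 3.19 and 2.72 TPM and was highest in replicate 2 instead. Paf1 exceeded Ctr9 by 0.39 ± 0.12. Leo1 exceeded Cdc73 by 1.87 ± 0.19, which shrank to 0.062 with the sum over transcripts, where Cdc73 has 5 rows and Leo1 has 1. The Cdc73 transcript is 11586 bases long with a coding sequence of 1593, the longest transcript among the members. Supt5 and Paf1 lie 54.2 kb apart on chromosome 7 in opposite orientation, the only members within 200 kb of each other.

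P-TEFb consists of the kinase CDK9 and a T-type cyclin. Cdk9 stood at 16.4, 15.8 and 18.1 TPM, while 72.3% of its windows occur once in the genome. Ccnt1 stood at 6.06, 6.92 and 6.16 TPM and Ccnt2 at 7.33, 7.71 and 7.81 TPM, and no value of either cyclin overlapped the kinase. Cdk9 exceeded Ccnt1 by 1.38 ± 0.18, a ratio of 2.64 ± 0.33. Between the cyclins the difference was small, with Ccnt1 below Ccnt2 by -0.25 ± 0.09, and it turned to 0.70 with the sum over transcripts.

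The inhibitors of P-TEFb were measured too. HEXIM1 blocks the kinase when bound to 7SK RNA, and LARP7 binds the 3' end of that RNA and stabilises it. Hexim1 stood at 5.87, 6.24 and 6.62 TPM and Larp7 at 5.76, 6.78 and 7.22 TPM. Their ranges overlapped, and the Larp7 minus Hexim1 difference of 0.07 ± 0.08 changed sign between libraries (exact sign-flip p = 0.5, adjusted p = 0.523). Of the Larp7 windows 84.2%, and of those in its coding sequence 80.3%, occur once in the genome. Rn7sk, the RNA itself, was listed at 4.66, 3.91 and 4.17 TPM from 79, 56 and 63 reads. The gene is 331 bases long, 31.9% of its windows occur once in the genome, and the others match 8 further places. The value gives no reliable level of 7SK RNA relative to its proteins.

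CDK12 and CDK13, with cyclin K, phosphorylate the polymerase tail further along the gene. Cdk12 stood at 2.80, 3.06 and 2.73 TPM, Cdk13 at 4.94, 5.44 and 5.56 TPM and Ccnk at 6.40, 6.22 and 6.44 TPM. Cdk12 was the lowest of the 3 in each library. Cdk13 exceeded it by 0.87 ± 0.12, Ccnk by 1.12 ± 0.11 and Cdk9 by 2.51 ± 0.18. The first and second of these differences turned to -1.13 and -0.88 with the sum over transcripts, where Cdk12 has 6 rows in the table against 1 each for Cdk13 and Ccnk. The third was 3.59 with the sum.

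Of the 23 pairs examined, the widest gap was in the super elongation complex, in which an AFF scaffold joins P-TEFb to an ELL factor. Aff4 (chr11:53350833-53421830, plus strand) stood at 20.7, 24.5 and 23.1 TPM. Aff1 (chr5:103692374-103855322, plus strand), the longest gene of the set with 163 kb, stood at 1.02, 1.10 and 1.41 TPM from 436, 396 and 535 reads. Aff4 exceeded Aff1 by a ratio of 19.6 ± 2.96, or 4.17 ± 0.21 on the log2(TPM + 0.1) scale, which was 3.45 with a pseudocount of 1 and 5.20 with the sum over transcripts. For Aff1, the 95% exact Poisson intervals of replicate 1, from 0.93 to 1.12 TPM, and of replicate 3, from 1.29 to 1.53 TPM, did not overlap. The ELL factors, which suppress pausing, could not be separated. Ell stood at 3.11, 3.35 and 3.18 TPM and Ell2 at 3.22, 3.37 and 2.89 TPM. Their ranges overlapped, and Ell2 minus Ell was -0.02 ± 0.09 (exact sign-flip p = 1). Tcea1 encodes TFIIS, which rescues arrested polymerase by stimulating RNA cleavage. It stood at 13.2, 13.3 and 16.6 TPM, with replicate 3 apart from the others, and only 15.6% of its windows occur once in the genome. It exceeded its paralog Tcea2 by 0.58 ± 0.27, which turned to -1.47 with the sum over transcripts.

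**Figure D2:**
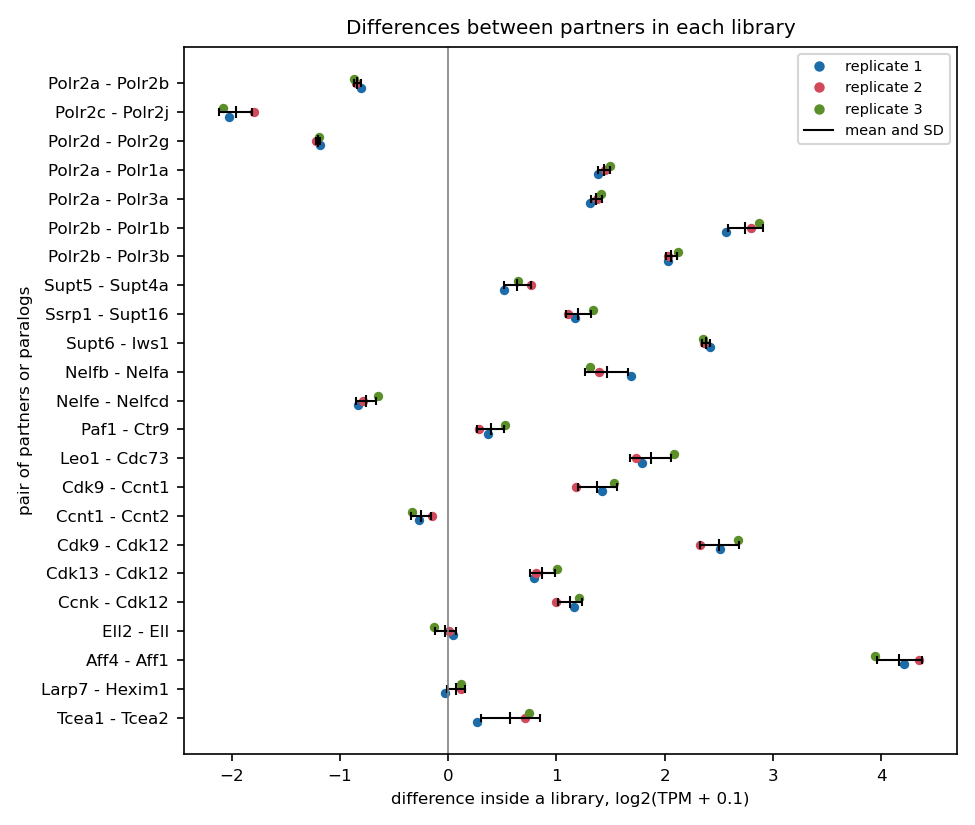
Differences between partners or paralogs inside each library on the log2(TPM + 0.1) scale, with a point per library, a tick at the mean and a bar of 1 SD either side. Aff4 minus Aff1 is the widest at 4.17, while Ell2 minus Ell (-0.02) and Larp7 minus Hexim1 (0.07) lie across 0.

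Other genes of the same pathway were taken from lists that held no member. Of these 45 genes, 42 were at 1 TPM or more, with a median of 6.55 TPM. Further P-TEFb and super elongation partners had 9 of 11 at 1 TPM or more and a median of 3.65 TPM, from Ell3 with 3, 0 and 2 reads to Mllt1, a subunit that reads acetylated histones, at 14.1 TPM. The TFIIS and elongin genes had 4 of 5, from Tcea3 at 0.085 TPM to Elob, an adaptor of elongin and of ubiquitin ligases, at 71.6 TPM, of whose windows 54.5% occur once. The partners of PAF1 and SPT6 had 6 of 6 and a median of 18.9 TPM, from Rnf40 at 9.98 TPM to Ube2b at 68.6 TPM, a ubiquitin ligase subunit and a conjugating enzyme that act on histone H2B. Kinases and phosphatases of the polymerase tail had 9 of 9, from Ctdspl at 2.17 TPM to Ssu72 at 29.1 TPM. Termination and Integrator genes had 6 of 6, from Ints9 at 2.90 TPM to the exonuclease gene Xrn2 at 25.6 TPM. Assembly and initiation genes had 8 of 8, from Tbp, the TATA-binding protein, at 1.59 TPM to Polr2m, a polymerase-associated regulator, at 71.8 TPM.

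Members varied between libraries about as much as expressed coding genes, and the library in which they were highest went with transcript length. The median coefficient of variation was 7.41%, against 7.88% over all coding genes of at least 1 TPM. In 26 of the 40 members it was more than 2 times the counting error of their reads, a share not computed for all coding genes. Of the 39 members at 1 TPM or more, 12 were highest in replicate 1, 10 in replicate 2 and 17 in replicate 3, against 28.2%, 40.4% and 31.4% of all coding genes at that level. Among the 7 members with a transcript under 1 kb, 7 were highest in replicate 1 and 0 in replicates 2 or 3, against 53.2%, 8.89% and 37.9% of coding genes of that length. Polr2k, with a transcript of 601 bases, fell just under 1 TPM and is not among them; it was highest in replicate 2 and lowest in replicate 1. The 7 are Polr2d, Polr2f, Polr2g, Polr2h, Polr2i, Polr2j and Supt4a. Of 13 members between 1 and 3 kb, 4 were highest in replicate 1, 0 in replicate 2 and 9 in replicate 3, against 36.6%, 24.4% and 38.9%. Of 10 members between 3 and 6 kb, 1 was highest in replicate 1, 4 in replicate 2 and 5 in replicate 3, against 21.2%, 51% and 27.8%. Of 9 members from 6 kb on, 0 were highest in replicate 1, 6 in replicate 2 and 3 in replicate 3, against 10.9%, 74.3% and 14.8%. In that last class 8 of 9 were lowest in replicate 1 and 1 in replicate 3, whereas 37.4% and 56.1% of all genes of that length were.

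The size of the difference also went with length. The median of replicate 1 minus the mean of the others, on the log2(TPM + 0.1) scale, was 0.20 for members under 1 kb, 0.02 from 1 to 3 kb, -0.12 from 3 to 6 kb and -0.11 from 6 kb on. For all coding genes of at least 1 TPM it was 0.12, 0.02, -0.03 and -0.05. The sign of the median was thus the same for members and for all genes in each class, although long genes as a whole were more often lowest in replicate 3. In the shortest class 6 of the 7 short members are polymerase subunits, while the kinases, cyclins and scaffolds are longer. Marker medians also differed between libraries. In replicates 1 to 3 the astrocyte median was 33.6, 41.2 and 50.1 TPM and the pan-neuronal median 205, 218 and 188 TPM. The oligodendrocyte lineage median was 2.18, 1.27 and 2.62 TPM. Of its 7 genes, 4 were highest in replicate 3, 2 in replicate 1 and 1 in replicate 2. The proliferation median was lowest in replicate 2, at 1.46 TPM, and highest in replicate 3, at 2.22 TPM. Of its 5 genes, however, 3 were highest in replicate 1 and 2 in replicate 3. The part of transcript length, or of cell mixture, in the members' spread was not tested.

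**Figure D3:**
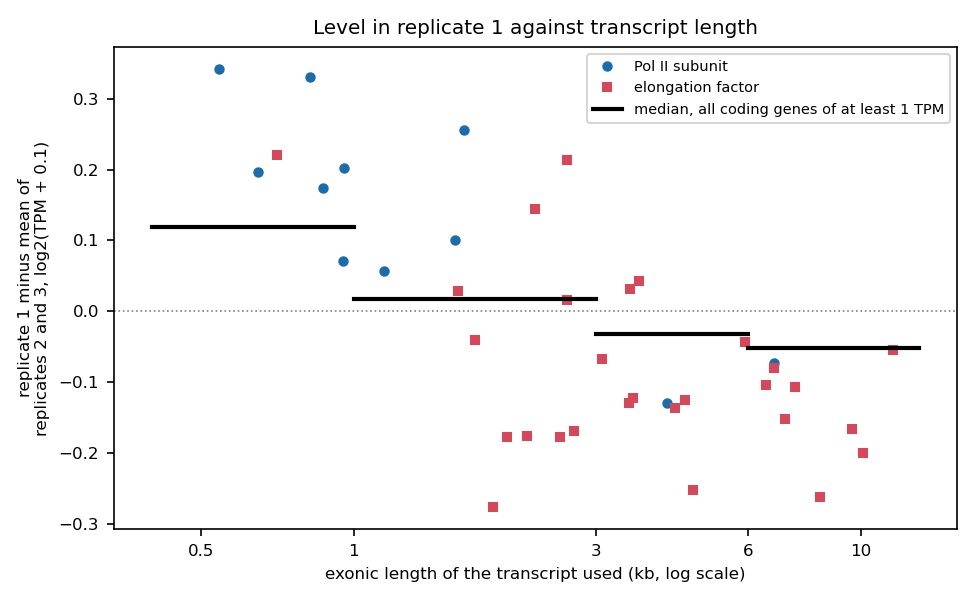
Replicate 1 minus the mean of replicates 2 and 3, on the log2(TPM + 0.1) scale, against exonic length of the transcript used (log axis), for the 39 members of at least 1 TPM, with bars at the median of all coding genes in 4 length classes. Members under 1 kb lie above 0 (median 0.20) and those of 6 kb and over below it (median -0.11), while the medians of all coding genes go from 0.12 to -0.05.

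The table lists transcripts, which allowed a look inside the members. The 40 genes have 153 rows: 15 genes have 1 row each, and Paf1 has the most with 10. Of the rows, 60 in 17 genes are annotated as retaining an intron, and these stood at a median of 79.5% of their gene's level. Since a read is counted for every transcript it overlaps, such a level need not come from unspliced RNA. Where the exons of 1 transcript lie wholly inside another on the same strand, however, the extra reads of the outer one belong to the segment that only it holds. A read that also touches the inner transcript is not among them, which lowers the density found for a segment, most for short ones. There were 23 such nested pairs in 10 members, and pairs of a gene share reads. The read density of the extra segment was a median of 45.9% of the inner density, against 62.0% over all coding genes, and it was under 20% in 6 pairs of 5 genes (26.1% of pairs, against 14.6% of 11865 pairs in all).

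The lowest densities belonged mostly to introns. In Polr2e an outer transcript adds 1503 bases, of which 1268 are intronic for the coding transcript, at 4.81, 4.60 and 4.03% of the inner density. In Ctr9 a segment of 1157 bases, 1068 of them intronic, was at 4.82 ± 1.24%, and in Ccnt2 segments of 3460 and 3835 bases were at 5.82 ± 1.14% and 11.2 ± 1.95%. The inner transcripts of these Polr2e, Ctr9 and Ccnt2 pairs are themselves annotated as retaining an intron, so the percentages are not relative to the coding transcript. Reads that also touch the inner transcript are left out here too. Beside those inner transcripts, the mostly intronic segments were thus covered by few reads per base in each library. An exception was Nelfe, where 208 untranslated bases that only the longer of 2 coding transcripts holds were at 18.4 ± 1.99%. Being short, this segment loses a larger share of its reads to the inner transcript, so its density is a low estimate.

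Exonic extensions were covered far more. The longer Ccnt1 coding transcript adds 5222 untranslated bases, covered at 86.1, 107 and 93.7% of the density of the shorter one, and a further pair with the same outer transcript gave 90.4 ± 10.3%. Of the 2297, 2213 and 2083 reads of the longer transcript, only 749, 620 and 641 were also counted for the shorter one. The Aff4 coding transcript was covered at 73.4 ± 6.84% outside a short coding transcript nested in it, and that of Nelfe at 79.8 ± 14.1% outside a short one of its own. The highest value was 120.4 ± 4.56% for 1245 extra bases of a Cdk9 transcript annotated for nonsense-mediated decay. Of these bases 696 are coding and 292 lie outside the span of the coding transcript used. The inner transcript is annotated as retaining an intron, so the percentage is not relative to the coding transcript. Over another inner transcript so annotated, the same outer one gave 54.4 ± 5.18%. Polr2a has 2 nested coding transcripts: the longer adds 941 bases, 827 untranslated and 114 coding, at 30.5, 31.5 and 23.6% of the inner density. Every library thus had reads in this extension, fewer per base, by this way of counting, than in the inner transcript.

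**Figure D4:**
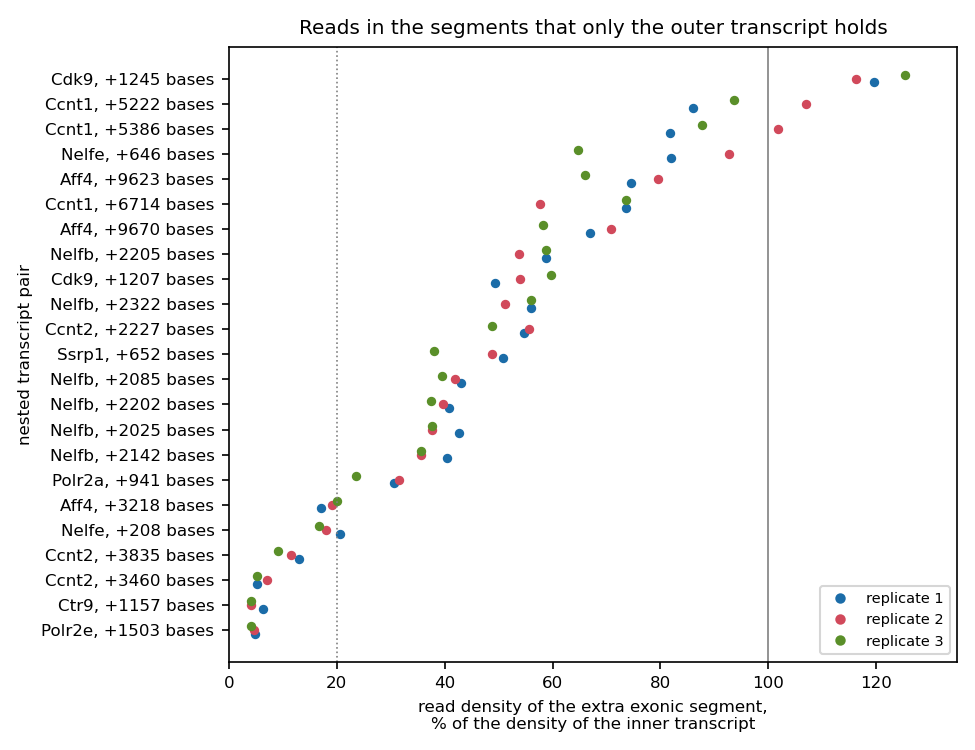
Read density of the exonic segment that only the outer of 2 nested transcripts holds, in % of the density of the inner transcript, for the 23 pairs in 10 members, with a point per library, a dotted line at 20% and a solid line at 100%. Intronic segments of Polr2e, Ctr9 and Ccnt2 lie lowest, from 4.48% on average, and segments of Ccnt1 and Cdk9 highest, up to 120.4%.

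The promoters of the members held more CpG dinucleotides at the median than those of all coding genes. In the 250 bases before the start, the 32 members with an entry had a median of 24 CpG dinucleotides and 63.2% G and C. Over 13913 coding genes these were 13 and 58.4%, and over the 8810 of at least 1 TPM 17 and 61.2%. At least 10 CpG were present in 31 of 32 members (96.9%), against 61.9% of all promoters and 80.1% of those of genes at 1 TPM or more. The lowest count was 9 in Polr2c and the highest 47 in Cdc73. Polr2c, Nelfb (10), Paf1 (11), Polr2b (14) and Supt6 (16) lay below the median of 17. The other members with an entry lay above it. Of the promoters printed above, that of Polr2a had 23, that of Aff4 34 and that of Aff1 20. A relation of CpG count to level was not tested.

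Motif letters were counted in the same windows. The GC box was present in 27 of 32 members (84.4%), against 52.1% of all promoters and 63.0% of those of genes at 1 TPM or more. The ETS motif was in 8 (25%, against 11.2% of all and 14.9% of those at 1 TPM or more) and the NRF1 motif in 4 (12.5%, against 6.53% and 9.26%). The CAAT element was in 10 (31.3%, against 35.5% and 36.4%) and the YY1 motif in 1, Supt5 (3.13%, against 0.496% and 0.738%). A TATA box was in 3 members (9.38%, against 8.52% and 5.57%): Polr2a at 33 bases before the start, Polr2c at 151 and Nelfb at 229. The Polr2a window therefore holds the TATA letters at the distance usual for that element together with 3 GC boxes, that of Aff1 holds 3 GC boxes and that of Aff4 none of the 6 motifs. These are letter matches in 1 window per gene and say nothing of what binds there. The RefSeq start can lie away from that of the transcript used, by up to 3187 bases in Ccnt1 among these members. The Aff1 window ends at the start of the transcript used, which begins inside the gene coordinates printed above and not at their outer end.

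**Figure D5:**
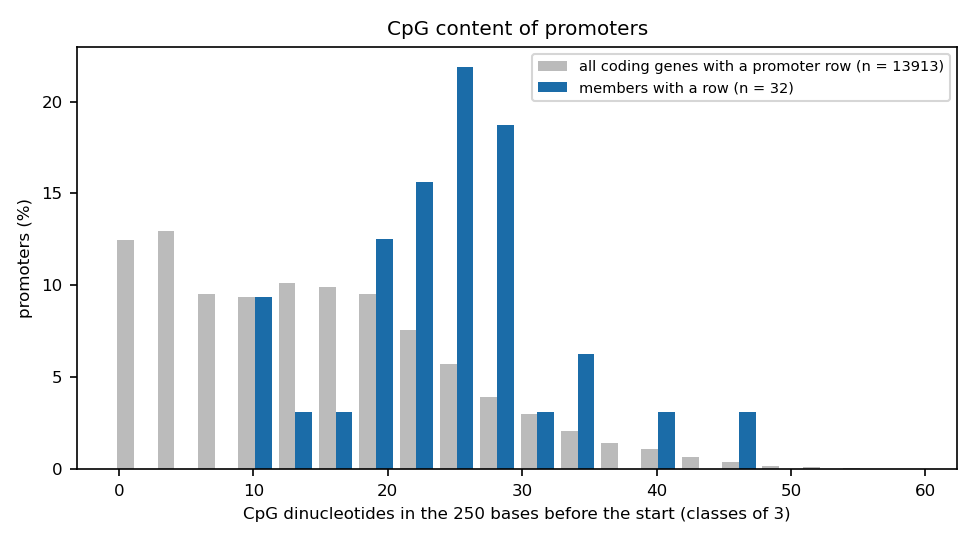
Distribution of CpG dinucleotides in the 250 bases before the start, in classes of 3, as the percentage of promoters, for 32 members (blue) and 13913 coding genes (grey). The members' median is 24 and that of all coding genes 13.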

How the data were processed

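Per the labels' protocols, RNA was purified with a QIAgen RNeasy kit and libraries were built with the KAPA RNA HyperPrep kit. The submitters' processing notes name STAR 2.5.3a, Subread 1.4.6 with featureCounts, FastQC 0.11.2 and build mm10. The deposited table gives TPM values of the authors for 84660 transcripts, and the TPM scale is set by all its rows together. How reads with several matches were counted is not given in the sources used here.

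Rows were matched by transcript identifier to GENCODE M21 on GRCm38, the same build: 98.1% matched and 1643 did not. TPM times exonic length gave whole reads, within 0.01 of a read, for 98.0% of 77590 matched rows above 0. For 12 members the length was adjusted so that it gave whole reads. With 1 group and no comparison between conditions, no count test was run. Uniqueness is the share of a transcript's windows of 50 bases with no match outside the gene's own span on 22 chromosomes of GRCm38. Windows across exon junctions or repeated inside the gene can thus count as occurring once. The windows came from GENCODE M21 exons, whose total length can differ from the length used for reads. Nested pairs needed 50 reads in the inner transcript and 200 extra bases.

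Differences were taken inside each library as log2(TPM + 0.1), which understates those of low genes, and tested by exact permutation of their signs, two-sided, Benjamini-Hochberg adjusted over 23 pairs. Expressed means a mean over the libraries of 1 TPM or more. The members and lists were chosen with earlier results of these data known. Named are the 40 members, the highest and lowest gene of each other list, the genes of each pair, Rn7sk, and the 5 highest and 5 lowest nested pairs.

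The alternatives were pseudocounts of 1 and 0.01, other choices of transcript, the sum over transcripts, rescaling to nuclear coding genes, other minima, leaving out each replicate and, added after seeing the data, members with at least 90% unique windows. Read recovery was tested on simulated data over 17725 genes, where 100% of reads were recovered. The same lengths were used to make and to recover the simulated counts. The simulation therefore tested how the TPM worth of 1 read is found, and not the lengths or the sharing of reads. Python 3.11.15, numpy 2.4.6, pandas 2.3.3, scipy 1.17.1, numba 0.67.0 and matplotlib 3.10.9 were used.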

Additional observations from a re-analysis of the deposited data

How the results depend on the processing

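Levels and pairs were recomputed under each alternative. The median member level, 9.87 TPM, moved to 27.0 with the sum over transcripts, to 11.2 with the most abundant coding transcript and to 45.9 when rescaled to nuclear coding genes, which multiplies every gene by the same factor within a library. The sum counts shared reads repeatedly; it moved 24 of 40 members by over 1.5 times, the most abundant transcript 3 and the longest coding sequence 0. The difference between the medians of members and of all coding genes, 1.73, became 1.48 with a pseudocount of 1, 1.76 with 0.01, 1.94 with the sum, 1.79 with the most abundant transcript, 0.29 among genes of at least 1 TPM and 1.79 for members with at least 90% unique windows. Under the sum, 5 pairs reversed: Supt5 minus Supt4a to -0.82, Ccnt1 minus Ccnt2 to 0.70, Cdk13 minus Cdk12 to -1.13, Ccnk minus Cdk12 to -0.88 and Tcea1 minus Tcea2 to -1.47. Leaving out 1 replicate, Ell2 minus Ell ran from -0.061 to 0.029 and reversed without replicate 3; the cause was not tested. The number of members at the 1 TPM minimum or above ran from 39 to 40 without 1 replicate and from 37 to 40 over other settings. Pairs with 1 sign and a difference beyond the SD numbered 20 to 22, members highest in replicate 3 numbered 17 to 22, and nested pairs under 20% numbered 6, or 8 with a minimum of 100 extra bases. No paired analysis was possible because 1 group leaves no other condition whose libraries could be paired; differences between genes were already taken inside each library. Low counts limit Polr2k and Rn7sk, and repeated sequence limits 8 members with under 90% unique windows.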
